A study of Cricetulus griseus with 3 samples.

Results

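Receptors for neurotransmitters and peptide hormones were followed on arrays that set cells with enhanced γ-secretase activity against cells in which this protease was inhibited. The members were taken by name, as every spot of the array with a single gene symbol of the serotonin, dopamine, muscarinic and nicotinic acetylcholine, GABA-A, glutamate, adrenergic, histamine, melanocortin, corticotropin-releasing hormone, bombesin, neuropeptide Y, opioid, somatostatin, neurotensin, tachykinin, vasopressin, oxytocin, endothelin, galanin and GLP-1 receptor families, or of the Gpr and Gprc names given to G protein-coupled receptors. This gave 62 spots for 48 genes, of 16928 tested spots and 8146 genes. Of the 48 genes, 36 had 1 spot, 10 had 2 and 2 had 3, and no adrenergic, histamine or oxytocin receptor was among them. The name rule also took in Npy, which encodes the peptide neuropeptide Y, and Grina, which encodes a membrane protein associated with glutamate receptors by name. Neither is a receptor.

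S-1 cells are a line derived, through an intermediate line, from CHO, the established Chinese hamster ovary line. The study marks APP as overexpressed in S-1 cells. They stably carry the tagged γ-secretase subunits Flag-PEN2, APH1-a2-HA and NCT-GST together with PS1, grew under G418, puromycin, zeocin, hygromycin and blasticidin, and received 0.05% DMSO for 24 h. The reference was untransfected CHO cells of the same origin, without these drugs, which received 10 µM of the γ-secretase inhibitor DAPT in 0.05% DMSO for 24 h. On each of the 3 mouse cDNA arrays an S-1 culture met a CHO culture given DAPT, with S-1 RNA in Cy3 on arrays 1 and 2 and in Cy5 on array 3. All values are log2 ratios with S-1 cells on top and DAPT-treated CHO cells below, so that 1 unit is a doubling (n = 3 arrays throughout). The transfection, the drugs and the inhibitor differed together, and their effects cannot be told apart.

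Most receptors described here are G protein-coupled. Binding of an amine or a peptide outside the cell lets the receptor activate a heterotrimeric G protein, which then acts on adenylyl cyclase, phospholipase C or ion channels. Nicotinic, GABA-A and the ionotropic glutamate receptors are instead ion channels that open when the transmitter binds. Many of these genes are best known from neurons, endocrine glands and gut, and CHO cells are a common host for expressing such receptors from plasmids.

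The ratios differed with where on the array a receptor was printed. The clone collections are marked in the supplementary lists by the letters H, P and N, and each sits at fixed positions of the 32 print-tip blocks. A further set of 480 positions carries no clone in those lists and is called unlisted here. Those lists hold only the 2658 clones that passed in the study. All spots at H, P and N positions are called listed clones here, also where their clone is in no list. Of the 62 receptor spots, 37 were H clones, 3 P clones, 1 was an N clone and 21 were unlisted. The letters that could be looked up matched these positions for 2430 of 2431 clones. The positions were found by the same lookup, so this is no independent check, and it covers only clones of those lists. Across all tested spots, which are no replicates of each other, r was 0.962 between arrays 1 and 2, 0.878 between 1 and 3 and 0.892 between 2 and 3. Among the genes of transfected subunits, Psenen was at 3.09 ± 0.25 and Aph1a at 2.02 ± 0.16 (SD, n = 3), which checks the direction of the ratios. Ncstn, another of them, was at 0.38 ± 0.25 and did not pass. Signal intensities were not analysed here, so whether CHO cells express a given receptor at all, and at what level, is unknown. For the same reason the CHO identity of the cells could not be checked by marker levels.

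At the threshold of the study (adjusted p under 0.005, limma), 23 of the 62 receptor spots were higher in S-1 cells, none was lower and 39 did not pass. Over all tested spots 9.68% were higher and 8.52% lower. On the 41 listed clones 4 were higher and none lower, where 7.66% of all listed clones were higher and 8.74% lower. Of the 23, 19 were unlisted, 2 were P clones, 1 was an N clone and 1 an H clone. By the definition of unlisted, these 19 are not among the clones that the study listed as passed. Thus 19 of 21 unlisted receptor spots passed, where 78.8% of all unlisted spots were higher and 0.833% lower. Among H clones 1 of 37 passed, where 6.76% of all H spots were higher and 8.52% lower. The absence of lower spots holds for limma at this threshold. At an unadjusted p under 0.05 there were 5 lower and 29 higher receptor spots, and all 23 that passed had the same sign on the 3 arrays. In gene values, the mean of a gene's spots, 21 of 48 genes were higher and none lower (background 12.4% higher and 10.3% lower). On listed clones alone, 31 of the genes could be measured and 4 were higher, where 9.26% of all such genes were higher and 10.6% lower. What DNA the unlisted spots hold beyond their annotated gene was not tested.

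**Figure D1:**
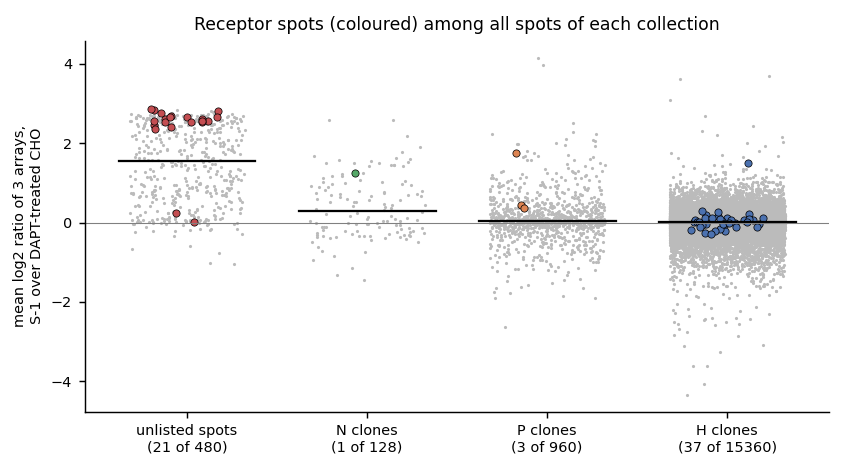
Log2 ratio (S-1 cells over CHO cells with DAPT), as the mean of 3 arrays (vertical axis), for each spot, by clone collection (horizontal axis). Grey points are all other spots, coloured points the receptor spots, whose number of all spots is given in brackets, and black lines the median of all spots of a collection. Of the 21 unlisted receptor spots 19 lie between 2.35 and 2.85, and 36 of the 37 H clones lie within 0.3 of 0.

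Among the receptors for amines and acetylcholine, 5 of 7 genes were higher in S-1 cells and 2 did not pass. Of all genes 12.4% were higher and 10.3% lower. Each of these 5 genes had an unlisted spot, and 78.8% of all unlisted spots were higher. The 4 serotonin receptors all rose. Htr1a, which couples to inhibitory G proteins, had log2 ratios of 2.37, 2.56 and 2.89 on arrays 1, 2 and 3, a mean of 2.61 ± 0.26 (SD, n = 3; adjusted p = 1.35e-04, limma). Htr1b, a receptor of the same class, was at 2.38, 2.67 and 2.64, a mean of 2.56 ± 0.16. Htr2a, which couples to phospholipase C, was at 2.35, 2.56 and 2.80, a mean of 2.57 ± 0.23. The linear ratios were 6.09 for Htr1a, 5.92 for Htr1b and 5.93 for Htr2a, with all arrays above 2 on the log2 scale. Htr2c, also a phospholipase C coupled receptor, was the highest of the amine receptors at 2.55, 2.74 and 2.99, a mean of 2.76 ± 0.22 (adjusted p = 1.17e-04). Each of these genes had a single spot, and each of these spots was unlisted.

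The dopamine receptors were measured by 2 kinds of spot. Drd2, the inhibitory dopamine receptor targeted by antipsychotic drugs, was at 2.13, 2.50 and 2.73 on its unlisted spot, a mean of 2.46 ± 0.30 (adjusted p = 1.88e-04). On its P clone the ratios were 0.32, 0.58 and 0.46, a mean of 0.45 ± 0.13. With an adjusted p of 0.00498 this was the receptor spot just inside the threshold, and it no longer passed without array 1 (adjusted p = 0.0105) or array 2 (0.0441). Both H clones of Drd3, a related receptor, lay above 0 on every array without passing, at means of 0.19 ± 0.08 (adjusted p = 0.0408) and 0.17 ± 0.13 (adjusted p = 0.0934). Chrm3, a muscarinic acetylcholine receptor that signals through phospholipase C, had ratios of 0.20, 0.14 and −0.02 on an H clone and did not pass (adjusted p = 0.227).

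Of 19 genes of peptide hormone receptors, 14 were higher in S-1 cells and 5 did not pass, and 13 of these 14 had an unlisted spot. The shares were 12.4% higher and 10.3% lower for all genes, and 78.8% higher for all unlisted spots. Grpr, the receptor of gastrin-releasing peptide, was the highest of all receptors at 2.52, 2.93 and 3.11, a mean of 2.85 ± 0.30 (adjusted p = 1.40e-04, limma). Crhr2, which binds urocortins, followed closely at 2.61, 2.85 and 3.08, a mean of 2.85 ± 0.23. The linear ratios were 7.23 for Grpr and 7.19 for Crhr2, a gap smaller than the SD of either. Oprk1, the κ-opioid receptor, whose ligand is dynorphin, was at 2.34, 2.65 and 2.95, a mean of 2.65 ± 0.30.

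The melanocortin receptors split by the kind of spot. Mc4r, a hypothalamic receptor that restrains feeding, was at 2.57, 2.77 and 3.10, a mean of 2.81 ± 0.27 (adjusted p = 1.25e-04). Mc3r, its relative in the control of energy balance, was at 2.44, 2.59 and 2.91, a mean of 2.65 ± 0.24. Both are unlisted spots. Mc2r, the ACTH receptor of the adrenal cortex, was measured by 2 H clones with means of −0.02 ± 0.04 and 0.11 ± 0.15, and neither passed (adjusted p = 0.745 and 0.274).

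The spots of neuropeptide Y and of both its receptors measured were higher in S-1 cells. Npy, the peptide, was at 2.44, 2.60 and 2.92, a mean of 2.65 ± 0.25 (adjusted p = 1.25e-04). Npy1r, an inhibitory receptor of the peptide, was at 2.20, 2.39 and 2.48, a mean of 2.35 ± 0.14, the lowest of the 19 spots of this set that were unlisted and passed. The 359 other unlisted spots that were higher had means down to 0.37. Npy5r, linked to feeding, was at 2.36, 2.42 and 2.79, a mean of 2.53 ± 0.23. All 3 genes had an unlisted spot alone, and 78.8% of all unlisted spots were higher. Of the somatostatin receptors, which inhibit hormone release, Sstr2 was at 2.40, 2.63 and 2.66, a mean of 2.56 ± 0.14, and Sstr5 at 2.30, 2.35 and 2.55, a mean of 2.40 ± 0.13. They too were measured on unlisted spots alone.

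The galanin receptors differed among themselves although all 3 had an unlisted spot alone. Galr1 was at 2.36, 2.65 and 3.01, a mean of 2.68 ± 0.33 (adjusted p = 1.80e-04), and Galr2 at 2.26, 2.59 and 2.72, a mean of 2.52 ± 0.24. Galr3, the remaining receptor of the same peptide and also unlisted, was at 0.15, 0.22 and 0.33, a mean of 0.23 ± 0.09, and did not pass (adjusted p = 0.0228). Every array thus had Galr3 more than 2 units below both other receptors. The only other unlisted receptor spot that did not pass was that of Avpr1b.

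Vasopressin receptors and the GLP-1 receptor were measured by 2 kinds of spot each. Avpr1a, the vasopressin receptor of liver and vessel walls, was at 2.37, 2.57 and 2.86 on its unlisted spot, a mean of 2.60 ± 0.24 (adjusted p = 1.25e-04). Its H clone had ratios of −0.06, 0.85 and 0.08, with array 2 standing apart, a mean of 0.29 ± 0.49 that did not pass (adjusted p = 0.267). For Avpr1b, the vasopressin receptor of pituitary corticotrophs, the order was the opposite. The unlisted spot was at −0.04, 0.03 and 0.02 (adjusted p = 0.957) and the P clone at 0.20, 0.44 and 0.49, a mean of 0.37 ± 0.16 that did not pass (adjusted p = 0.0124). Glp1r, the target of incretin drugs on pancreatic β-cells, passed on both of its spots. Its unlisted spot was at 2.33, 2.58 and 2.68, a mean of 2.53 ± 0.18, and its N clone at 1.01, 1.24 and 1.52, a mean of 1.26 ± 0.26 (adjusted p = 8.99e-04). Over all N spots 28.1% were higher and 4.69% lower. The N clone no longer passed without array 2 (adjusted p = 0.0147).

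Within these 4 genes the 2 spots were compared on the same arrays. The unlisted spot exceeded the listed clone by 2.31 ± 0.54 in Avpr1a (95% interval 1.92 to 2.69), by 2.005 ± 0.24 in Drd2 (1.76 to 2.25) and by 1.27 ± 0.10 in Glp1r (1.07 to 1.48). In Avpr1b the difference was −0.37 ± 0.12 (−0.58 to −0.16). A limma fit of this difference over the 243 genes with both kinds of spot, chosen after the values were seen, gave adjusted p = 6.33e-07 for Avpr1a, 7.06e-08 for Drd2, 5.18e-07 for Glp1r and 0.00363 for Avpr1b. In that fit 87.7% of the genes were higher and 3.29% lower on the unlisted spot. The median difference of the 239 other genes was 1.11. The gene values of Avpr1a (1.45), Drd2 (1.45) and Glp1r (1.90) are means over unequal spots, and on listed clones alone those of Drd2 (0.45, adjusted p = 0.00443) and Glp1r (1.26, adjusted p = 0.00107) passed while that of Avpr1a did not (adjusted p = 0.253).

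**Figure D2:**
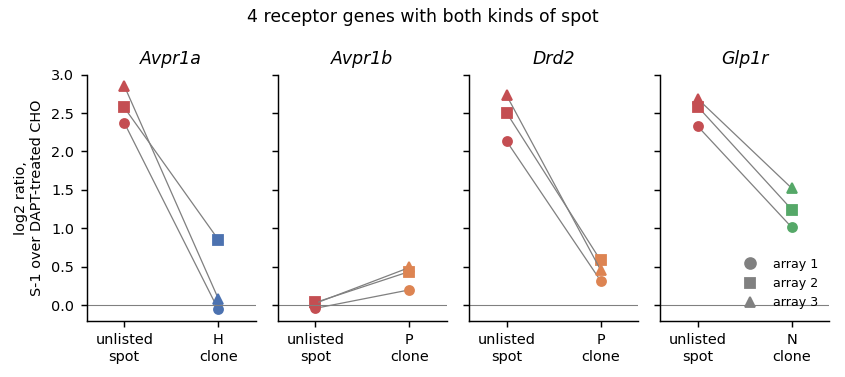
Log2 ratio (S-1 cells over CHO cells with DAPT; vertical axis) on the unlisted spot and on the listed clone of the same gene (horizontal axis), with 1 line and marker shape per array. In Avpr1a, Drd2 and Glp1r the unlisted spot is higher on all 3 arrays, and in Avpr1b it is lower on all 3.

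Ntsr1, the high-affinity neurotensin receptor, was the only peptide receptor that rose without an unlisted spot. Its P clone was at 1.54, 1.84 and 1.86, a mean of 1.75 ± 0.18 (adjusted p = 1.57e-04, limma) or 3.35-fold. Over all P spots 19.3% were higher and 12.8% lower. The receptor of substance P, Tacr1, did not pass on either H clone, with means of 0.01 ± 0.04 and −0.12 ± 0.04 (adjusted p = 0.923 and 0.106). Ednrb, an endothelin receptor needed for neural crest cells, was at 0.11 ± 0.12 and −0.05 ± 0.04 on 2 H clones and did not pass either.

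**Figure D3:**
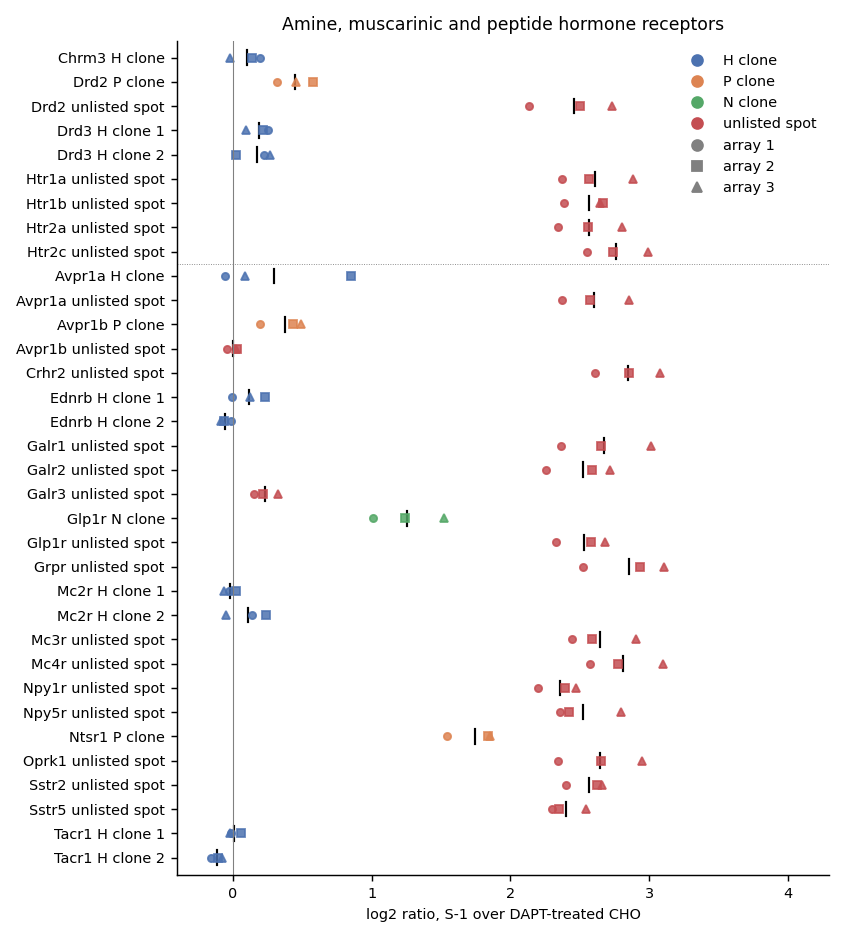
Log2 ratio (S-1 cells over CHO cells with DAPT; horizontal axis) on each array (marker shapes) for every spot of an amine or muscarinic receptor (above the dotted line) or a peptide hormone receptor (below it). Colours give the clone collection and black ticks the mean of 3 arrays. Unlisted spots other than Avpr1b and Galr3 lie above 2 on every array, and the H clones lie near 0.

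The 19 unlisted spots that passed, Npy included, formed a narrow band. Their means ran between 2.35 and 2.85, or linear ratios between 5.11 and 7.23, with adjusted p between 1.17e-04 and 1.88e-04. Neighbours in the order of means differed by at most 0.09, less than the smallest SD among them (0.13). The ends of the band had 95% intervals of 2.55 to 3.16 for Grpr and of 2.18 to 2.53 for Npy1r. Grpr was the higher on every array. Since they were picked as the highest and lowest mean, their separation is no test of a difference. Differences between single receptors of the band were not tested. Between these 19 spots the SD was 0.12, 0.15 and 0.18 for arrays 1, 2 and 3. Of the 459 unlisted spots of other genes or of no named gene, 25.3% were at or above 2.35, against 10 of the 16448 listed clones, receptors included. The median of those 459 spots was 1.46, but the band holds only spots that passed. The 359 other unlisted spots that were higher had a median of 1.86 and an upper quartile of 2.48. With each collection centred on its own median, all 19 still passed but at smaller means, between 0.80 for Npy1r and 1.30 for Grpr, while Galr3 turned to −1.32 (adjusted p = 1.65e-04).

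The band also moved together between arrays. Array 1 was the lowest for all 19 spots and array 3 the highest for 18, with Htr1b as the exception. Medians were 2.37, 2.59 and 2.86 on arrays 1, 2 and 3. On array 3, where S-1 RNA carried Cy5, the ratio exceeded the mean of arrays 1 and 2 on all 19 spots, by a median of 0.38. The same difference had a median of 0.14 over the 459 other unlisted spots and of −0.02 over the 37 receptor H clones. Over the 359 other unlisted spots that were higher, its median was 0.22 and its upper quartile 0.38. The dye and the culture of array 3 cannot be told apart. When dye was added to the fit, all 23 spots that passed did so again, between 0.45 and 2.92. That fit puts the shift of array 3 into the dye term. Its residuals come from arrays 1 and 2 alone, so passing again is no independent check.

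Of the ligand-gated channels, none of 6 genes passed, and all were measured by H clones. Few H spots passed at all, 6.76% higher and 8.52% lower. Gabrb1, a β-subunit of the GABA-A receptor, had nearly equal ratios of 0.22, 0.23 and 0.23, a mean of 0.22 (adjusted p = 0.013, limma). Gria2, the AMPA receptor subunit that limits calcium entry, was negative on every array at −0.19, −0.41 and −0.17, a mean of −0.26 ± 0.13 (adjusted p = 0.0314). Both lay beyond 0 on all arrays without passing the threshold. Gabra3, Chrna5, Grik1 and Grik2, subunits of GABA-A, nicotinic and kainate receptors, had means between −0.01 and 0.07 and adjusted p between 0.288 and 0.915. The metabotropic glutamate receptors Grm5 and Grm7 were at 0.07 ± 0.08 and −0.05 ± 0.07. Grina was at −0.19, −0.34 and −0.15, a mean of −0.22 ± 0.10 (adjusted p = 0.0306).

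Among the Gpr and Gprc receptors, 1 of 12 genes was higher in S-1 cells and 11 did not pass. All were measured by H clones, and 6.76% of all H spots were higher and 8.52% lower. The gene that passed was Gprc5a, an orphan receptor of epithelia that is induced by retinoic acid. Its H clone had ratios of 1.52, 1.65 and 1.29, a mean of 1.49 ± 0.18 (adjusted p = 2.47e-04, limma) or 2.8-fold. It was the only receptor H clone that passed, and 18 of the 15360 H spots, itself included, were at or above its mean. Its relatives did not pass, with Gprc5b at 0.06 ± 0.08 and the H clones of Gprc5c at −0.11 ± 0.02 and 0.08 ± 0.02.

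The clones of the other orphan receptors stayed close to 0 and some disagreed within a gene. Gpr22, an orphan known from heart and brain, had 3 H clones. The first was at 0.27, 0.25 and 0.30, with an adjusted p of 0.00746 the receptor spot just outside the threshold. The second was at 0.15, 0.15 and 0.05, and the last was at −0.60, −0.35 and 0.06 and differed in sign between arrays. Gpr137b, a protein of lysosomal membranes, was lower in S-1 RNA on all arrays for 2 of its 3 H clones, with means of −0.21 ± 0.12 and −0.19 ± 0.03 (adjusted p = 0.045 and 0.024), and the remaining one was at −0.12 ± 0.21. Both clones of Gpr1 were at 0.02 ± 0.05 and 0.07 ± 0.04, and Gpr108, Gpr137c, Gpr149, Gpr161, Gpr173 and Gpr176 had means between −0.16 and 0.09, none past the threshold. For 34 of the 36 receptor H clones that did not pass, the 95% interval from limma lay within 0.5 of 0 on the log2 scale. For all 36 it lay within 1. These intervals use variances moderated over all spots, and intervals from the 3 arrays of a spot alone were not computed. The exceptions to the narrower bound were the clones of Avpr1a and Gpr22 whose arrays disagreed.

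**Figure D4:**
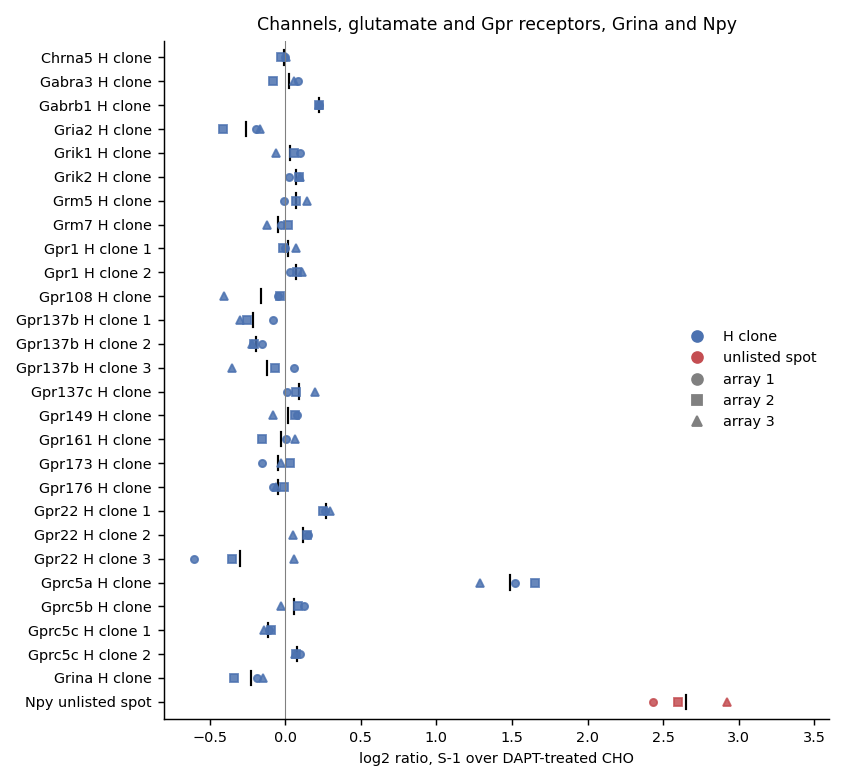
Log2 ratio (S-1 cells over CHO cells with DAPT; horizontal axis) on each array (marker shapes) for the spots of ligand-gated channels, metabotropic glutamate receptors, Gpr and Gprc receptors, Grina and the peptide Npy. Black ticks are means of 3 arrays. Gprc5a at 1.49 is the H clone that passed, and Npy at 2.65 is an unlisted spot.

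Peptide ligands were measured on both kinds of spot. Some of them, orexin and gastrin included, have no receptor among the genes followed here. Of 30 genes on a list of peptide ligands 16 were measured, of which 9 were higher in S-1 cells, none lower and 7 did not pass (median 0.67, against 0.01 over all genes). Over all genes 12.4% were higher and 10.3% lower. On listed clones alone 4 of 11 were higher (median 0.16), where 9.26% of all such genes were higher. These 4 were on P clones, and over all P spots 19.3% were higher and 12.8% lower. Unlisted spots carried galanin (Gal, 2.69 ± 0.22), orexin (Hcrt, 2.79 ± 0.30) and dynorphin (Pdyn, 2.63 ± 0.21), beside Npy. Vasopressin (Avp) had an unlisted spot alone as well and did not pass, at 0.02 ± 0.05 (adjusted p = 0.792). Urocortin (Ucn), with a P clone and an unlisted spot, was at 0.15 ± 0.02 and did not pass either (adjusted p = 0.0384). On P clones, gastrin (Gast) was at 1.85, 2.16 and 2.16, a mean of 2.06 ± 0.18 (adjusted p = 1.48e-04, limma). The P clones of pancreatic polypeptide (Ppy, 1.30 ± 0.09), somatostatin (Sst, 0.91 ± 0.20) and substance P (Tac1, 0.43 ± 0.10) also passed. Pomc, the precursor of the melanocortins and of ACTH, passed at 1.27 as the mean of a P clone and an unlisted spot, and stood at −0.09 on the P clone (adjusted p = 0.234).

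Of the enzymes and transporters that make, break down or carry transmitters, 3 of 11 measured genes rose and none fell. Over all genes 12.4% were higher and 10.3% lower. On listed clones none of 9 passed in either direction. The 3 were Ddc (2.62 ± 0.32), which makes dopamine and serotonin, Pnmt (2.50 ± 0.28), which makes adrenaline, both on unlisted spots alone, and Th (1.16 ± 0.20), the first enzyme of catecholamine synthesis. The listed H clone of Th was at −0.14 (adjusted p = 0.203). Neuron markers were thinly measured. Of 11 genes 3 had a value, with Snap25 at 2.63 on an unlisted spot and Tubb3 lower at −0.53 on an H clone, and neither of 2 glial markers passed. Of 7 markers of the endocrine pancreas, 5 had a value, of which 4 were higher and none lower (median 1.30). The 4 were Ins2, an insulin gene, at 2.50 ± 0.21 on an unlisted spot, Iapp, the gene of amylin, at 1.60 ± 0.34 on an N clone, and Ppy and Sst, which are also on the list of ligands. The gene of glucagon, Gcg, was at 0.09 ± 0.03 and did not pass. On listed clones 3 of 4 were higher (median 1.11), where 9.26% of all such genes were higher. These 4 genes were on P and N clones, however, where 19.3% of all P spots and 28.1% of all N spots were higher. The part of these markers in the ratios of the peptide receptors was not tested.

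The lists of genes downstream of the receptors had members in both directions, at shares near those of all genes (12.4% higher and 10.3% lower) for the G proteins. Of 15 G protein subunit genes 2 rose, 2 fell and 11 did not pass (median −0.10), and on listed clones none of 13 was higher and 2 were lower. Gnao1, the α-subunit abundant in brain, was at 2.32 ± 0.24 and Gna11, which couples to phospholipase C, at 0.96 ± 0.10, both on unlisted spots. Gnai1, an inhibitory α-subunit, fell to a log2 ratio of −0.74 ± 0.14 (adjusted p = 0.00102, limma) and Gnb2, a β-subunit, to −0.40 ± 0.11, both on H clones. Of 12 genes of receptor kinases, arrestins and RGS proteins, Rgs2 was higher (0.58 ± 0.10) and Rgs12 lower (−0.60 ± 0.09), and Rgs2 no longer passed on its H clones (0.01, adjusted p = 0.896).

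Of 13 genes of second messenger enzymes and sensors 2 rose and 2 fell, all on listed clones, where 9.26% of all genes were higher and 10.6% lower. With so few genes these shares are near the background. Plcb1, a phospholipase C activated by G proteins, was at 1.32, 1.33 and 1.46 on a P clone, a mean of 1.37 ± 0.07 (adjusted p = 1.40e-04, limma). The cAMP-responsive factor Creb1 was at 0.39 ± 0.09, also on a P clone. Adcy7, an adenylyl cyclase, was at −1.35, −1.23 and −0.92 on an H clone, a mean of −1.17 ± 0.22 (adjusted p = 7.52e-04), and Prkar2b, a regulatory subunit of protein kinase A, at −0.49 ± 0.10. None of 12 scaffold and trafficking genes passed. Differences between these lists were not tested.

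**Figure D5:**
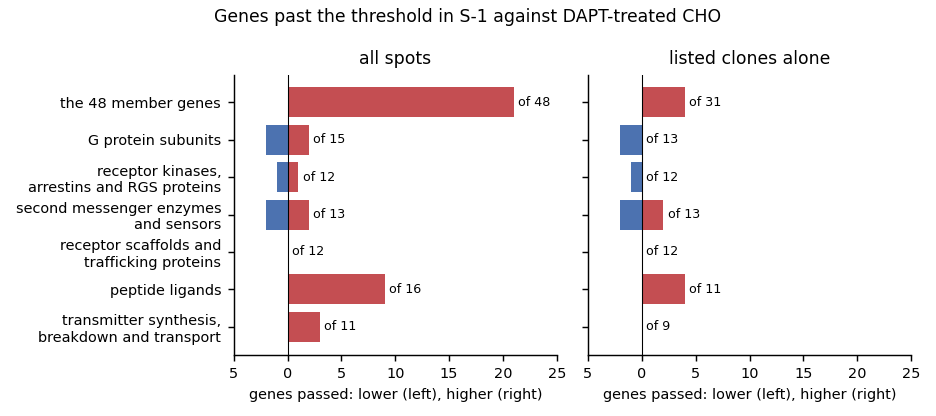
Number of genes past the threshold (horizontal axis, higher in S-1 cells to the right, lower to the left) among the receptor genes and 6 lists of ligands and signalling genes, from all spots and from listed clones alone. The number of genes with a value stands beside each bar. The receptor genes give 21 of 48 from all spots and 4 of 31 from listed clones.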

How the data were processed

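Total RNA was amplified, labelled and hybridised to mouse cDNA arrays, so that hamster RNA was read by mouse clones. Of the 48 gene names, 46 are symbols of the hamster annotation as well. The deposited values are log2 ratios, which the authors normalised by lowess within each print-tip group, with no background subtracted. Every column has S-1 cells on top.

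The 736 spots at 23 unnamed positions repeated in each block were inferred to be controls, since their ratios followed the dye (r = −0.960 between arrays 1 and 3), and left out. A mean ratio per spot was tested against 0 with limma 3.58.1 (R 4.3.3) over all 16928 spots, and likewise over the 8146 gene values, with Benjamini-Hochberg adjustment. Positions of collections were found by pairing the clones of the study's supplementary lists to spots through their fold values (relative tolerance 1e-05), a lookup used for identity alone. The scripts were tested on simulated data. Python 3.11.15 made the tables.

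Named were, for each role, up to 8 spots that passed in each direction, all spots of genes with 2 or more of which 1 passed, the spots beside the threshold and up to 5 others with the smallest p. The other receptors were named after their values were seen, as were the ligands and signalling genes that passed. The members, lists and tests were chosen with earlier results of these data known. The number of arrays limits the precision. The study calls the cultures biological triplicates, and the labels only number the replicates.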

Additional observations from a re-analysis of the deposited data

How the results depend on the processing

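The count of 23 higher receptor spots was 3 with the unlisted spots left out and 1 with H clones alone, and that of 21 higher genes was 4 and 1. These settings hold 41 and 37 of the 62 receptor spots, and 19 of the 23 were unlisted. Without unlisted spots the P clone of Drd2 moved just outside the threshold (adjusted p = 0.00512, limma). The count of 0 lower spots was 4 at a threshold of 0.05, 3 with the dye as a coefficient and 2 with each collection centred, and that of 0 lower genes was 2, 2 and 2, and 1 with array weights. With single arrays left out, higher spots numbered 19 to 27 and lower spots 0 to 3, and higher genes 21 to 22 and lower genes 0 to 2. Without array 3 all S-1 RNA was in Cy3. Spots lower numbered 3 and genes lower 2 there, and higher spots were fewest, at 19, without array 2. Drd2 on its P clone no longer passed with arrays centred, a robust prior, control spots included, unlisted spots left out, each collection centred, or without array 1 or 2. The Glp1r N clone no longer passed with control spots included or without array 2, nor did the unlisted spots of Drd2 and Galr1 without array 2 (2.43 and 2.69). Centring each collection lowered the 19 unlisted receptor spots that passed to between 0.80 and 1.30, and turned Galr3 to −1.32. Gabra3 turned to −3.07e-04 with array weights and −0.00981 without array 1, and Grik1 to −0.00385 without array 1. Over the single arrays left out, the highest values of these genes were 0.0736 for Gabra3 and 0.0787 for Grik1. Arrays scaled and quantile normalisation changed the call or direction of none of the 44 named spots. Of 572 values of named spots under alternatives, 533 kept direction and side. H clones alone give no value for other spots. No paired analysis was possible because each ratio already pairs the cultures of 1 array.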
